A study of Mus musculus with 2 samples.

Results

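Nuclei whose open chromatin was led by basal myoepithelial marker genes were picked out of single-nucleus ATAC-seq libraries of mouse mammary organoids, an assay that counts insertions of a transposase into accessible DNA. Of 5509 nuclei with at least 20000 counts, among 6175 deposited, 763 met the rule: 431 of 2732 in the library treated with doxycycline (DOX) and 332 of 2777 in the library treated with ethanol (EtOH). The rule used measured values. The counts in peaks on the bodies and the 2 kb upstream of Krt14, Krt17, Trp63, Myh11, Oxtr and Mylk (the B list) were divided by the nucleus total and by the mean over all kept nuclei. A nucleus was chosen if this B score was at least 1.2 times both the luminal progenitor score (L) and the hormone-sensing luminal score (H) and its immune score was below a set limit. The highest immune score among the chosen nuclei was 1.22 in DOX and 1.15 in EtOH. These nuclei are called B-led here. Only a minority of them also stood apart in the rest of the genome, and the name basal-like is kept for the cluster that holds that minority.

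Both libraries came from primary organoids of C57BL/6J mice of the genotype shTRPS1.34 ki/+; CAG-rtTA3 tg/+, so the control nuclei carried the same alleles. An shRNA against Trps1, a GATA-type repressor, sits behind a tetracycline-responsive element in the Col1a1 locus, and rtTA3 is driven by the ubiquitous CAG promoter, so that no cell type is singled out by the transgene. Wild-type mice are named in a figure legend, but the labels and methods name the shRNA line, and the labels were followed. The labels give no age. Organoids were grown with Neuregulin, Noggin and R-spondin and received doxycycline at 0.1 µg/ml or ethanol for 7 days. Cells of several mice were mixed before loading, and each group has 1 library. No test between the groups was therefore possible, and the shRNA, doxycycline and the library itself cannot be told apart. Intervals are 95% intervals that cover counting error only. The libraries shared 23 barcodes, of which 3 were B-led in DOX and 0 in EtOH.

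Basal cells form the outer layer of mammary ducts and alveoli. They lie on the basement membrane, express basal keratins and the transcription factor p63, and contract in response to oxytocin with a smooth muscle-type actomyosin apparatus. The layer also holds cells with stem cell activity and sends Notch, Wnt and growth factor signals to the luminal cells it surrounds.

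The regions below were shown because they were among the most selective for these nuclei and hold the core of the sequence that p63 binds, a pair of 4-base sites set 6 bases apart (14 bases in all, in capitals). Sequences are the plus strand of GRCm38 (mm10), 300 bases from the centre of each region. Intron and exon labels hold for each whole region, and exons were not split into coding and untranslated parts. The Sema5a, Col4a2 and Rpgrip1l regions belong to the 8 with the highest ratio of B-led to other non-immune nuclei in EtOH, and the Fgfr2 region to the same order among B-led nuclei of the basal-like cluster. Sema5a encodes a semaphorin, Col4a2 a basement membrane collagen, Rpgrip1l a protein of the ciliary transition zone and Fgfr2 a fibroblast growth factor receptor.
Sema5a intron, chr15:32320846-32321145: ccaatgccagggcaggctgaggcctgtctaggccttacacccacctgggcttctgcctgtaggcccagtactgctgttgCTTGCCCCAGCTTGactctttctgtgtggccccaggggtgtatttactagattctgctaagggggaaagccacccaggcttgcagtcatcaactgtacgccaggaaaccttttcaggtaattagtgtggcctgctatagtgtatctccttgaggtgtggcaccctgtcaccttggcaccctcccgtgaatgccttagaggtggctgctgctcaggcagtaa
Col4a2 intron, chr8:11343120-11343419: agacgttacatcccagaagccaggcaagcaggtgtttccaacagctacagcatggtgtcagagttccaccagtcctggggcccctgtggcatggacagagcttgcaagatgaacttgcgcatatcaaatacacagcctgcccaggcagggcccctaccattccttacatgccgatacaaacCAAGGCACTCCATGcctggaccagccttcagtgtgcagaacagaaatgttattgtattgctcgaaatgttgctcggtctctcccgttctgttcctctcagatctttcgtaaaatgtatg
Rpgrip1l intron and coding exon, chr8:91304546-91304845: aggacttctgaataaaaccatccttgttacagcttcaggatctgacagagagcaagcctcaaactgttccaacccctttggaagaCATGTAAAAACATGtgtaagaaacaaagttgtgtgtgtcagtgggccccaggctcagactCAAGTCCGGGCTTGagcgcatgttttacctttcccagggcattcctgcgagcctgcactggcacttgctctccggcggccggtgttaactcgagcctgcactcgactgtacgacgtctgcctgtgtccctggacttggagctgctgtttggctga
Fgfr2 intron, chr7:130213215-130213514: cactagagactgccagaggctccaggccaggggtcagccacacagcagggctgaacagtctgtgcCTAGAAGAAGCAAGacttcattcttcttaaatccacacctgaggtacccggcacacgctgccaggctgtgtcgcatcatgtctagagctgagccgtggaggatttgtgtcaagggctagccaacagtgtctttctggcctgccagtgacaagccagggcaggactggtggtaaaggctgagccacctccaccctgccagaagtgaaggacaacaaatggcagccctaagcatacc

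B-led nuclei made up 15.8% (14.4 to 17.2%) of kept nuclei in DOX and 12.0% (10.8 to 13.2%) in EtOH. Over non-immune nuclei alone they made up 28.2% (25.9 to 30.5%) of 1530 and 13.2% (11.9 to 14.6%) of 2521, because 1202 kept nuclei in DOX and 256 in EtOH were at or above the immune limit. The order of the libraries turned with the scoring: scaled to the mean of each library alone, the shares were 11.5% in DOX and 14.4% in EtOH, and with each nucleus thinned to 20000 counts they were 16.9% and 16.5%. The choice rested on few counts. The median B-led nucleus had 80499 counts in DOX, and in EtOH the median was 66847.5, but only 36 and 32 counts lay in peaks of the 6 B genes. After thinning, 67.1% of the B-led nuclei in DOX and 71.1% in EtOH remained B-led.

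Scores on either side of the limit differed little. The lowest ratio of the B score to the next score among chosen nuclei was 1.204 in DOX and 1.201 in EtOH, and the highest among nuclei left out was 1.199 in both. Of the chosen nuclei, 86 in DOX and 56 in EtOH had a ratio under 1.3, while 87 and 80 nuclei with a ratio over 1.1 were left out. The plot of marker scores by nucleus shows the B-led nuclei as the edge of a continuous cloud, with the nuclei of the basal-like cluster spread over its upper part. Their median B score was 2.21 in both libraries among B-led nuclei, beside 1.58 in DOX and 1.53 in EtOH for B-led nuclei elsewhere.

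**Figure D1:**
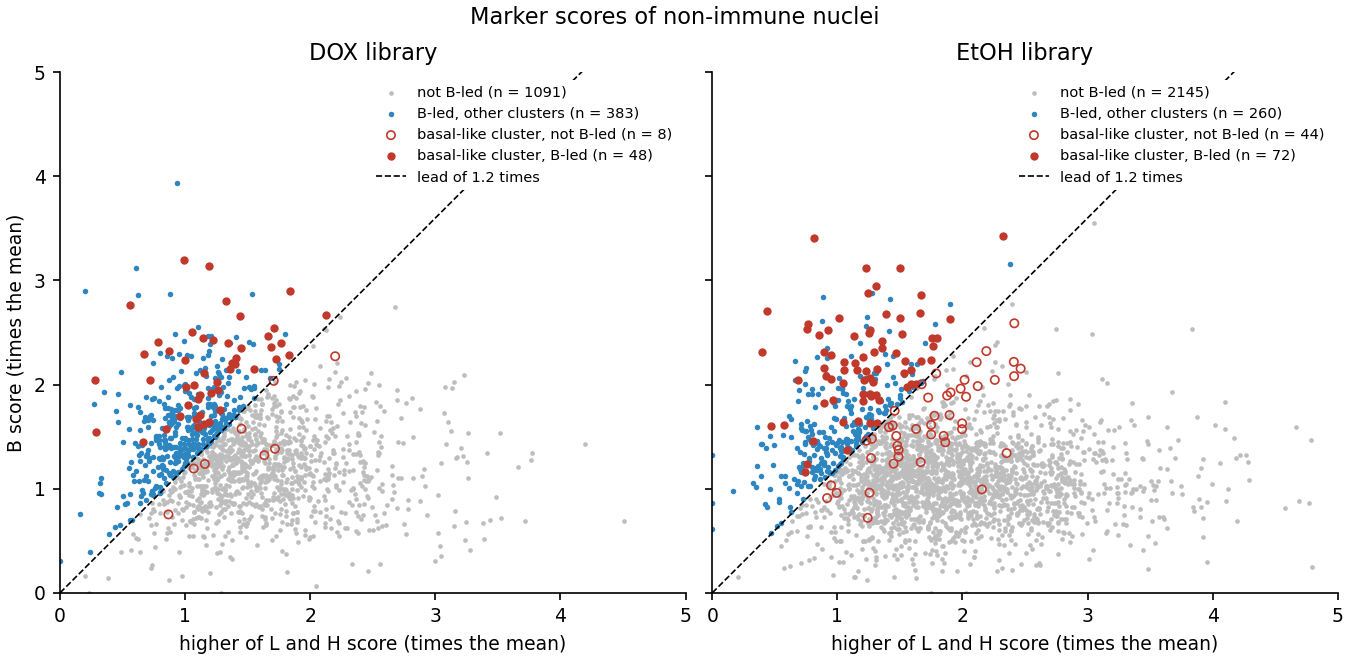
B score of each non-immune nucleus against the higher of its L and H scores, each as times the mean of all kept nuclei, in DOX (left) and EtOH (right). Filled red points are the 48 and 72 B-led nuclei of the basal-like cluster, open red points its other 8 and 44 nuclei, blue points the remaining 383 and 260 B-led nuclei and grey points all others. The dashed line marks a lead of 1.2 times, and 3 nuclei lie outside the plotted range of 5.

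To ask whether these nuclei formed a population of their own, kept nuclei were clustered on 174743 shared regions, without the 197 regions of the 4 choosing lists. The cluster with the highest median of the B markers is called basal-like. In it 5 of 6 B markers were over 0.5 higher (log2) than in all other nuclei, with a median of 1.09, beside 0 of 5 L and 3 of 6 H markers. A cluster made up mostly of DOX nuclei followed with 4 B markers and a median of 0.57, beside 2 L and 3 H markers. The basal-like cluster held 56 nuclei in DOX and 116 in EtOH, of which 85.7% and 62.1% were B-led, with 0 L-led and 0 immune nuclei. Conversely, only 48 of 431 B-led nuclei in DOX (11.1%, 8.33 to 14.5%) and 72 of 332 in EtOH (21.7%, 17.4 to 26.5%) lay in this cluster. At resolutions of 1 and 2, with the list regions included, or with each library clustered alone, the basal-like cluster held 48 to 51 of the B-led nuclei in DOX and 72 to 76 in EtOH.

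The remaining B-led nuclei sat among nuclei of other classes. In DOX 367 B-led nuclei (85.2%) lay in a cluster of 1318 DOX nuclei of which 27.8% were B-led, and in EtOH 212 (63.9%) lay in a cluster of 1474 EtOH nuclei of which 14.4% were B-led. Each of these large clusters came almost wholly from 1 library, so it may mark the library rather than a cell type. In the EtOH cluster 4 of 5 L markers were over 0.5 higher (log2) than in all other nuclei, with a median of 1.56, and 0 of 6 B markers were. Among the 15 nearest neighbours, B-led nuclei of the basal-like cluster had on average 81.4% B-led neighbours in DOX and 69.2% in EtOH. B-led nuclei elsewhere had 28.0% and 14.8%, beside 13.9% B-led among all kept nuclei of both libraries, immune nuclei included. Non-immune nuclei with no leading score had 25.6% and 15.2%, L-led nuclei 25.4% and 11.6% and H-led nuclei 16.2% and 4.15%. The basal-like cluster made up 2.05% (1.55 to 2.65%) of kept nuclei in DOX and 4.18% (3.46 to 4.99%) in EtOH, and 3.66% (2.78 to 4.73%) and 4.60% (3.82 to 5.49%) of non-immune nuclei, so that the intervals overlapped over non-immune nuclei.

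**Figure D2:**
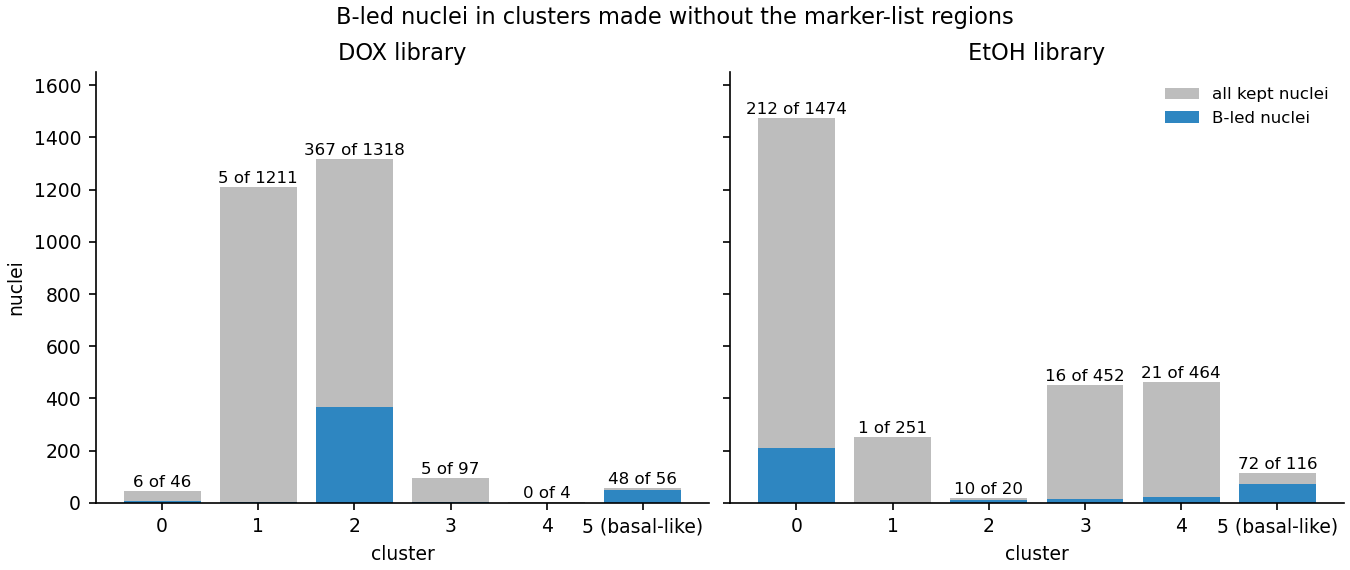
Kept nuclei (grey) and B-led nuclei (blue) in each of the clusters made without the marker-list regions, as numbers of nuclei in DOX (left) and EtOH (right). Most B-led nuclei lie in cluster 2 in DOX (367 of 1318) and in cluster 0 in EtOH (212 of 1474), while the basal-like cluster 5 holds 48 of 56 and 72 of 116.

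The 6 B markers were then read 1 at a time in nuclei chosen with the other 5, so that the marker read took no part in the choice of nuclei or in the clustering. The basal-like cluster was named for the highest median of all 6 markers, and the median of the other 5 picked the same cluster for each of the 6 markers left out. Values are log2 ratios of summed counts over the non-immune nuclei that were neither chosen nor in the basal-like cluster. For the largest cluster of each library, the comparison was with its nuclei that were not chosen.

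In the basal-like cluster the keratin genes Krt14 and Krt17 and the p63 gene Trp63 were more accessible in both libraries. Krt17 stood at 42.0 CPM (summed counts scaled to an equal total in every group) against 10.8 in DOX and at 34.6 against 6.45 in EtOH, log2 ratios of 1.96 (1.62 to 2.28) and 2.42 (2.09 to 2.74). Krt14 was higher by 1.19 (0.98 to 1.38) and 1.71 (1.54 to 1.88) on the log2 scale, and Trp63 by 0.93 (0.76 to 1.1) and 1.19 (1.04 to 1.33). Of the contractile pathway, Mylk, the myosin light chain kinase, was higher by 0.43 (0.29 to 0.57) and 0.53 (0.41 to 0.64). Oxtr, the oxytocin receptor, was higher in EtOH (0.74, 0.55 to 0.93), and its interval in DOX included 0 (0.18, -0.07 to 0.42). Myh11, the smooth muscle myosin heavy chain, was not higher in either library, at -0.24 (-0.71 to 0.19) and -0.21 (-0.60 to 0.15).

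Within the largest cluster the same reading gave ratios near 0. Krt17 stood at 11.4 CPM in the chosen nuclei against 11.3 in the others in DOX and at 7.08 against 6.15 in EtOH. In DOX the intervals of all 6 markers included 0, with log2 ratios from -0.06 (Myh11) to 0.10 (Krt14). In EtOH the intervals of Krt14 (0.23, 0.06 to 0.39), Trp63 (0.14, 0.00 to 0.27) and Mylk (0.17, 0.08 to 0.25) lay above 0, and those of Krt17, Oxtr and Myh11 included it. For Krt14, Krt17, Trp63 and Mylk the interval in the basal-like cluster lay above that in the largest cluster in both libraries.

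**Figure D3:**
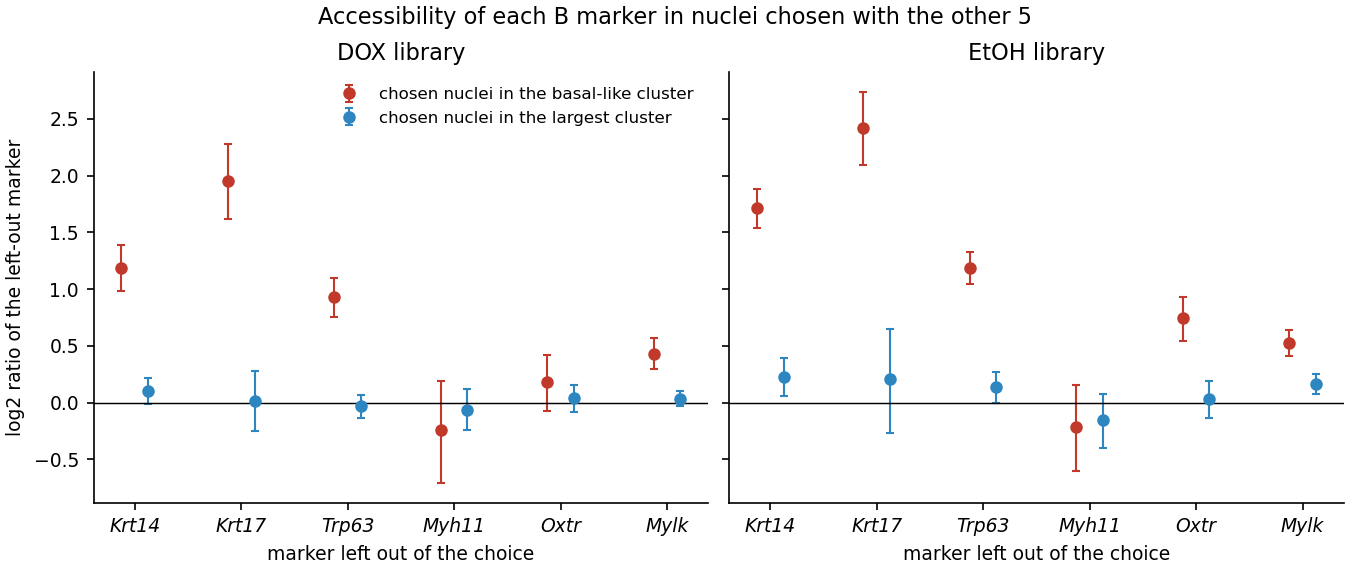
Log2 ratio of the accessibility of each B marker in nuclei chosen with the other 5 markers, in DOX (left) and EtOH (right). Points are ratios of summed counts with 95% counting intervals, in chosen nuclei of the basal-like cluster over non-immune nuclei neither chosen nor in it (red) and in chosen nuclei of the largest cluster over the nuclei of that cluster that were not chosen (blue). Krt17 reaches 1.96 and 2.42 in the basal-like cluster and stands at 0.02 and 0.20 in the largest cluster.

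In the largest clusters the left-out markers thus stood close to those of the surrounding nuclei, and the B-led nuclei there are called by their rule only. The regions of the B genes chose the B-led nuclei and the basal-like cluster was named for these genes, so the following values of single regions are a description. They were read in all nuclei of the cluster, B-led or not, 56 in DOX and 116 in EtOH. The Krt14 promoter region at chr11:100207201-100208106 held 221 counts in the DOX nuclei of the cluster and 1448 in the 1474 non-immune nuclei outside it. Its log2 ratio was 1.91 in DOX and 3.29 in EtOH. A Trp63 region at chr16:25849478-25850343, 47995 bp from the nearest start site of the gene, was the most selective of that gene, with 101 counts inside and 104 outside in DOX and 167 and 124 in EtOH, log2 ratios of 4.58 (3.99 to 5.17) and 4.70 (4.2 to 5.19). Of the 4 Trp63 regions with a p63 core, those at chr16:25843289-25844082 and chr16:25844327-25845160 were higher in both libraries, by 1.99 and 1.39 in DOX and by 1.93 and 2.0 in EtOH.

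Genes of the basal lineage outside the B list were read next, in 4 lists of 68 genes: transcription factors, matrix and keratin genes, contractile genes, and surface and signalling genes. These values describe nuclei that were clustered on the same regions, so they are no test of the cluster. In B-led nuclei of the basal-like cluster 36 of 68 genes in DOX and 44 in EtOH had an interval above 0, and 7 and 8 had an interval below 0. Among all protein-coding genes the shares above 0 were 12.6% and 14.6%, and the shares below 0 were 21.8% and 27.3%. In the B-led nuclei of the largest cluster, 6 of 68 genes in DOX and 4 in EtOH had an interval above 0, and 2 in each below. The shares over all genes were 4.05% and 3.2% above 0 and 4.77% and 3.96% below. Per nucleus, regions of these 68 genes took a median of 0.558% of counts in DOX and 0.577% in EtOH in B-led nuclei of the cluster. B-led nuclei of the largest cluster stood at 0.480% and 0.465%, beside 0.471% and 0.465% in its other nuclei.

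Surface and signalling genes were the most uniform of the lists. Of 18 genes, 14 in DOX and 16 in EtOH had an interval above 0 in B-led nuclei of the cluster and 0 had an interval below it. Among all genes 12.6% and 14.6% were above 0 and 21.8% and 27.3% below. Jag2, a Notch ligand, stood at 67.1 CPM against 22.7 outside the cluster in DOX and at 68 against 14.7 in EtOH, log2 ratios of 1.57 (1.31 to 1.81) and 2.21 (1.98 to 2.43). Lgr5, a receptor for R-spondins and a stem cell marker, was higher by 1.06 (0.82 to 1.31) and 1.48 (1.27 to 1.69). Igfbp3, which binds insulin-like growth factors, was higher by 1.52 (1.08 to 1.92) and 1.94 (1.6 to 2.26), and Pdpn, a surface mucin of basal cells, by 1.26 (1.05 to 1.46) and 1.37 (1.16 to 1.57). The Notch ligand Jag1 (0.48 and 0.31) and the neurotrophin receptor Ngfr (0.34 and 0.43) also had intervals above 0 in both libraries. They were the lowest of this list over all B-led nuclei of EtOH (-0.05 and -0.01). That order is not the order within the cluster, where the genes without an interval above 0 are not named.

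Among 12 transcription factors, 4 in DOX and 8 in EtOH were above 0 and 0 and 1 below. The shares over all genes were 12.6% and 14.6% above 0 and 21.8% and 27.3% below. Irx4, a homeobox factor, stood at 10.3 CPM against 4.09 in DOX and 18.6 against 5.21 in EtOH, with ratios of 1.34 (0.64 to 1.96) and 1.83 (1.39 to 2.25). Lmo1, a LIM-domain cofactor, was higher by 0.72 (0.42 to 1.00) and 1.5 (1.28 to 1.71). Snai2, which encodes the repressor Slug, was higher in EtOH (0.79, 0.50 to 1.07) and its interval reached 0 in DOX (0.35, -0.01 to 0.70). Id4, Tbx2 and Srf, the serum response factor, did not have an interval above 0 in either library. Id4 stood at 0.07 and 0.20, Tbx2 at -0.38 and -0.40 and Srf at -0.13 and -0.20.

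The matrix and keratin list was mixed, with 9 of 19 genes above 0 in DOX and 10 in EtOH, and 5 and 6 below. Among all genes 12.6% and 14.6% were above 0 and 21.8% and 27.3% below, so the calls below 0 were near that share. Sparc, a matrix glycoprotein, was higher by 1.40 (1.04 to 1.74) and 1.99 (1.69 to 2.28), and Lama3, a laminin chain of hemidesmosomes, by 1.48 (1.32 to 1.63) and 1.45 (1.32 to 1.58). Krt5, the usual partner of Krt14, was higher in EtOH (1.64, 1.1 to 2.13) and its interval in DOX included 0 (0.35, -0.41 to 1.02). Col4a1, a basement membrane collagen, was higher by 0.84 (0.64 to 1.03) and 0.42 (0.23 to 0.62), and Krt6a by 1.83 (1.38 to 2.26) and 0.87 (0.48 to 1.24). Nid1, the basement membrane linker nidogen, was lower, at -0.95 (-1.44 to -0.51) and -0.83 (-1.21 to -0.48).

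Of the contractile genes 9 of 19 in DOX and 10 in EtOH were above 0, and 2 and 1 below. The shares over all genes were 12.6% and 14.6% above 0 and 21.8% and 27.3% below. Acta2, which encodes smooth muscle actin, stood at 40.8 CPM against 19.0 in DOX and 43.8 against 17.3 in EtOH, ratios of 1.1 (0.77 to 1.41) and 1.34 (1.06 to 1.6). Pgm5, a protein of muscle adhesion sites, was higher by 0.67 and 1.04, and the actin-binding Cald1 by 0.17 (0.04 to 0.30) and 0.58 (0.47 to 0.68). Lmod1, an actin nucleator of smooth muscle, was higher in EtOH (0.65, 0.44 to 0.85), with 0.23 (-0.04 to 0.49) in DOX. The intermediate filament gene Des was higher in DOX (1.44, 0.66 to 2.13) but not in EtOH (0.22, -0.73 to 1.03), at 8.48 and 4.42 CPM, and Ppp1r14a, an inhibitor of myosin phosphatase, had intervals that included 0 (0.52 and -0.40).

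Lists of SRF and YAP targets, which overlap with contractile and adhesion genes, had members in both directions. Of 20 SRF targets 7 in DOX and 8 in EtOH were above 0 and 5 and 6 below, with medians of 0.00 and 0.02, beside -0.11 and -0.12 over all genes. Acta2 and the contractile gene Cnn1 (0.98 and 1.01) had ratios above 0, and Flna, a cross-linker of actin, stood at 0.06 and 0.53. The focal adhesion gene Zyx (-1.15 and -0.77) and the immediate-early gene Fos (-0.23 and -0.66) had ratios below 0. Of 20 YAP targets 4 and 7 were above 0 and 6 and 5 below. Over all genes 12.6% in DOX and 14.6% in EtOH were above 0 and 21.8% and 27.3% below. The calls below 0 in both lists were thus near the share over all genes. Crim1 was higher by 0.76 and 0.81, while Ccn2 (0.15 and 0.76) and Ccn1 (0.25 and 0.33) had intervals above 0 in EtOH alone, and Ankrd1 was lower in DOX (-2.29, -3.82 to -1.11) with -0.25 in EtOH. Tead4 stood at -0.44 and -0.45 and F3 at -0.47 and -0.49.

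Luminal genes were less accessible in these nuclei. Of 20 pan-luminal genes 14 in each library had an interval below 0 and 0 above it. Among all genes 21.8% in DOX and 27.3% in EtOH were below 0 and 12.6% and 14.6% above. Krt19, a luminal keratin, stood at 10.1 CPM against 39.2 in DOX and 10.2 against 48.1 in EtOH, ratios of -1.96 (-2.64 to -1.36) and -2.23 (-2.81 to -1.71). The tight junction gene Cldn4 was lower, at -1.66 (-2.23 to -1.14) and -0.64 (-1.05 to -0.25), and Prom1 stood at -0.64 and -0.48. The luminal factor gene Gata3 differed little, at -0.21 (-0.41 to -0.02) and -0.05 (-0.22 to 0.11), as did Muc1 (-0.03 and -0.02), and Lcn2 was lower in EtOH (-0.87) but not in DOX (-0.10). In the B-led nuclei of the largest cluster 1 of 20 pan-luminal genes in DOX and 0 in EtOH were above 0 and 1 and 2 below. The shares over all genes were 4.05% and 3.2% above 0 and 4.77% and 3.96% below. Luminal accessibility there thus stood close to that of the nuclei around them. Krt19 was at -0.04 and -0.12 in that comparison and Cldn4 at -0.11 and -0.08.

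**Figure D4:**
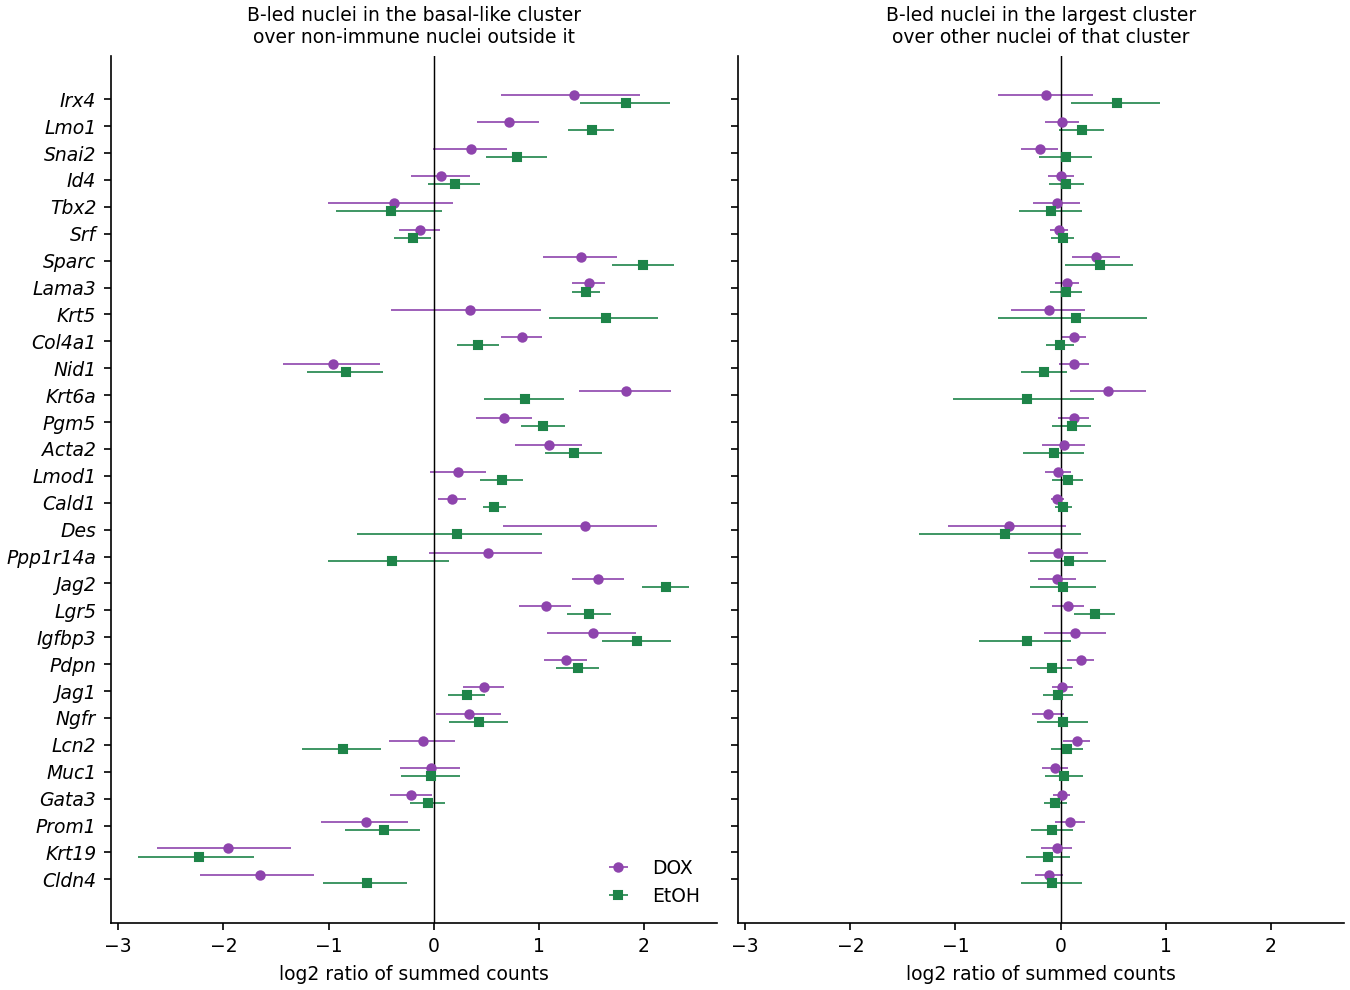
Log2 ratio of summed counts for the named genes of the basal lists and the pan-luminal list in DOX (purple circles) and EtOH (green squares), with 95% counting intervals. The left panel compares B-led nuclei of the basal-like cluster with non-immune nuclei outside it, where Jag2 reaches 1.57 and 2.21 and Krt19 -1.96 and -2.23. The right panel compares B-led with other nuclei of the largest cluster, where the same genes stand at -0.03 and 0.03 and at -0.04 and -0.12.

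Markers of other cell types were read in the same nuclei. Of 6 measured fibroblast markers 2 were above 0 and 1 below in each library, beside 12.6% and 14.6% of all genes above and 21.8% and 27.3% below. Dcn, a matrix proteoglycan, was higher in B-led nuclei of the cluster by 2.58 (1.98 to 3.14) in DOX and 2.66 (2.11 to 3.17) in EtOH and Col1a2 by 1.61 and 2.43, at 14.4 and 13.3 CPM and at 3.89 and 6.54 CPM. Pdgfra, the surface marker of fibroblasts, was not (0.19, -0.07 to 0.44, and -0.04, -0.30 to 0.21). The gene below 0 was the protease gene Fap in DOX (-0.71, -1.45 to -0.06) and the factor gene Twist2 in EtOH (-2.07, -2.92 to -1.33). The summed fibroblast list stood at 100.3 CPM (87.5 to 114.5) in DOX and 102.5 CPM (91.0 to 115.0) in EtOH, against 83.1 and 97.9 outside the cluster, with 1 of 7 genes (Lum) without a shared region and 0 at 0 counts. Of 8 pericyte genes 4 in DOX and 3 in EtOH were above 0 and 1 in each below. The list stood at 256 and 257 CPM against 223 and 228, with Mcam higher by 1.03 and 1.18 and Notch3 at -0.55 and -0.65. The immune list stood at 26.6 and 19.3 CPM, against 443 and 458 in immune nuclei. The endothelial, Schwann, keratinocyte and adipocyte lists had in DOX 1 gene above 0 and 4 below of 18 measured, and in EtOH 1 above and 3 below. The part of other cell types in the results was not tested.

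Single regions were read in the same way. With at least 100 counts, 2352 of 144516 regions in DOX (1.63%) and 9083 of 159055 in EtOH (5.71%) were at least 2-fold higher in B-led than in other non-immune nuclei. More regions, 4479 in DOX and 17547 in EtOH, were at least 2-fold lower. Restricted to B-led nuclei of the basal-like cluster against nuclei outside it, the shares that were higher were 14.4% and 15.7%. Within the largest clusters they were 0.302% and 0.641%. B-led nuclei of the basal-like cluster held 4365629 counts in DOX and 5658740 in EtOH, beside 28904588 and 13324317 in the largest clusters. The limit of 100 counts was on both groups together, so counting error differs and the shares are values side by side. Values at the named regions came mostly from the cluster. The Sema5a region held 118 counts in all B-led nuclei of DOX, of which 98 lay in the 48 cluster nuclei, and 201 counts in EtOH, of which 191 lay in the 72 cluster nuclei. Non-immune nuclei outside the cluster, 1474 in DOX and 2405 in EtOH, held 67 and 37 counts there, so that the log2 ratios were 5.35 (4.69 to 6.03) and 7.31 (6.58 to 8.11).

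The other printed regions followed the same order. The Col4a2 region, whose nearest start site is that of Col4a1 at 30444 bp, had ratios of 5.17 and 5.93 in DOX and EtOH, the Rpgrip1l region, with 2 cores, 4.73 and 6.30, and the Fgfr2 region 5.80 and 6.18. Of the 5 remaining regions of the highest 8 in EtOH, the intron of Slit3, a guidance ligand, at chr11:35415375-35416382 had ratios of 5.14 and 6.81, and 4 lay between genes. An intergenic region at chr8:92488409-92489403, 131157 bp from Irx5, held 69 and 228 counts in the 48 and 72 cluster nuclei and 64 and 57 outside (4.91 and 6.94). An intergenic region at chr11:7605015-7605985, 391577 bp from Igfbp3, had ratios of 5.0 and 6.38. That at chr12:110066134-110067123, 212439 bp from Dio3, had 6.18 in both, and that at chr1:73234967-73235894, 219522 bp from Tnp1, had 4.56 and 6.54.

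Regions with a p63 core in their central 300 bases made up 9.21% of all shared regions. They held 8.30% of the counts of B-led nuclei of the basal-like cluster in DOX and 8.52% in EtOH, against 7.24% and 7.28% in non-immune nuclei outside it, 14.7% and 17.0% more. A stricter core, with 3 pyrimidines and 3 purines between its sites, was held by 0.242% of regions, and the counts in them were 77.5% and 86.3% above. B-led nuclei elsewhere stood at 7.24% and 7.26%, a difference of 0.0639% in DOX and -0.218% in EtOH, and their strict-core regions were 0.127% and 0.838% above. The 8 and 44 cluster nuclei that were not B-led stood at 8.16% and 8.44%. Higher p63 core accessibility was seen in the cluster, whether or not its nuclei were B-led. Apart from those of the choosing lists, these regions took part in the clustering, so the values describe the cluster and are no test of it.

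**Figure D5:**
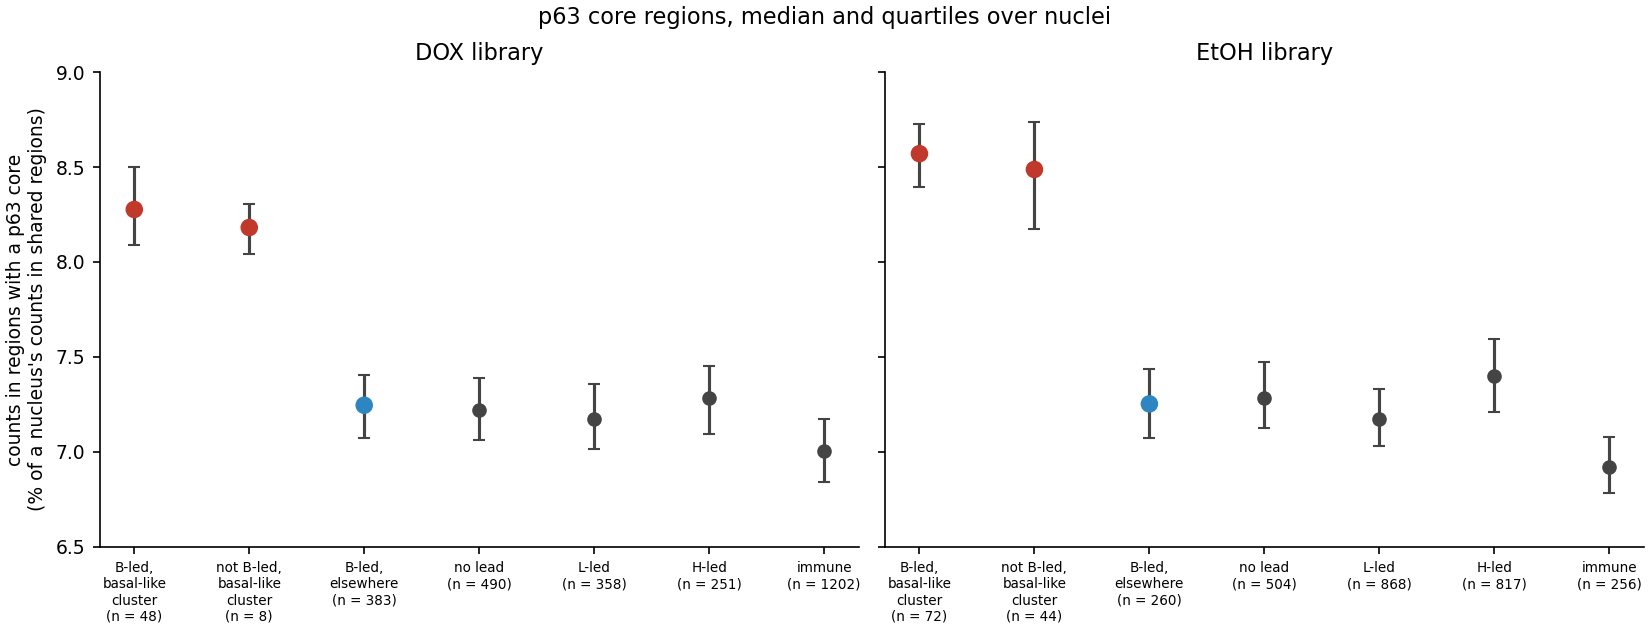
Counts in regions with a p63 core as a percent of each nucleus's counts in shared regions, in DOX (left) and EtOH (right), by class of nucleus. Points are medians over nuclei, bars run from the lower to the upper quartile, and the vertical axis starts at 6.5%. B-led nuclei of the basal-like cluster have medians of 8.28% and 8.57%, and B-led nuclei elsewhere have medians of 7.24% and 7.25%.

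Other motifs were searched on both strands in the same windows. Regions with the TEAD letters GGAATG, in 20.2% of shared regions, held 11.4% and 11.7% more of the counts in cluster B-led nuclei than outside, and those with the RUNX letters TGTGGT, in 27.4% of regions, 7.47% and 10.4% more. Regions with an SRF CArG box, in 1.58% of regions, were 5.19% and 8.72% above. Regions with the GRHL letters AACCNGTT, in 3.52% of regions, were at -11.3% and -11.6%, and those with CAGGTG, the letters bound by Slug among other factors, in 22.1% of regions, at -3.69% and -5.95%. In B-led nuclei elsewhere the TEAD difference was 1.34% and 1.16% and the RUNX difference 0.173% and -3.50%. Windows with these motifs can overlap, and their regions also took part in the clustering.

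Regions chosen in EtOH were read in DOX, which took no part in choosing them. Outside the choosing lists 9054 regions were at least 2-fold higher in B-led nuclei of EtOH, of which 14.4% held a p63 core beside 9.16% of all tested regions, and 0.928% held the strict core beside 0.246%. Their GC content was 47.4% against 49.4%. In DOX 8014 of them could be read, with a median log2 ratio of 0.58 beside 0.00 over all regions. The 1129 with a p63 core had a median of 0.70 and the 6885 without it 0.57, and 30.6% and 19.1% were again at least 2-fold higher. In EtOH, where they were chosen, their medians already differed, at 1.42 and 1.32. For B-led nuclei outside the basal-like cluster 2809 regions were chosen in EtOH in the same way. The 2069 of these that could be read in DOX had a median of 0.20. Of them 2.08% were again at least 2-fold higher, beside 20.7% for the regions of all B-led nuclei. For regions chosen in cluster B-led nuclei of EtOH, the medians in DOX were 1.40 with the core and 1.15 without it, beside 1.81 and 1.64 in EtOH. The cluster was made from nuclei of both libraries on these regions, so DOX is not a separate reading there.

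Doxycycline-treated and control B-led nuclei were set side by side last. Of 102776 regions, 6716 (6.53%) were at least 2-fold higher in DOX and 5750 (5.59%) lower. Among genes 14.5% had an interval above 0 and 14.2% below. Of 19 contractile genes 0 were above 0 and 6 below in B-led nuclei, and of 20 pan-luminal genes 11 were above and 0 below. B-led nuclei of the basal-like cluster formed 11.1% of the B-led nuclei in DOX and 21.7% in EtOH. Within the cluster 0 of 15 measured contractile genes were above 0 and 3 below, and 3 of 19 pan-luminal genes were above and 0 below, beside 5.66% above and 5.2% below over all genes. The Sema5a region was at -1.42 over all B-led nuclei and at -0.59 (-1.12 to -0.08) within the cluster, and the Slit3 region at -0.83 and -0.13 (-0.65 to 0.39). The part of the share of cluster nuclei in these values was not tested.

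Regions deep enough to be read within the cluster were compared next. The 12428 regions were kept for at least 200 counts in cluster B-led nuclei, a filter that the other groups took no part in, so the shares are values side by side and not a comparison of the groups. In cluster B-led nuclei 43 (0.346%) were at least 2-fold higher in DOX and 42 (0.338%) lower, 0.684% in all. In B-led nuclei elsewhere 4.10% of them were apart, in L-led nuclei 5.21%, in H-led nuclei 6.99% and in immune nuclei 10.3%, with medians of 1319, 2598, 2239 and 3013 counts per region beside 285. The 43 regions higher in the cluster had a median log2 ratio of 1.09 there and of 1.28 in non-immune nuclei outside it. The 42 lower regions had a median of -1.13 in the cluster and of -0.29 outside it.

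The genes with the highest ratios were low in EtOH and were also higher in other nuclei. Cym, the gene of the protease chymosin, held 263 counts in B-led nuclei of DOX and 10 in EtOH, a log2 ratio of 4.07 (2.81 to 5.71), with 3.77 in non-immune nuclei outside the basal-like cluster. Psg26, a pregnancy-specific glycoprotein gene, was at 3.94 (2.73 to 5.49) and Serpinb6d, of the serpin family, at 3.79 (2.71 to 5.13). The overlapping genes Gm27235 and D730048I06Rik shared the same regions and stood at 3.68 (2.60 to 5.02). The lowest was Rgr, an opsin gene, with 97 and 231 counts, at -1.90 (-2.42 to -1.41) in B-led nuclei and -1.53 outside. It was followed by Gm21958 (-1.77), Smim18 (-1.73), Tmprss12 (-1.38) and Apod, the gene of apolipoprotein D (-1.37).

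Inside the basal-like cluster other genes stood at the ends of the order. Tmem52b was highest, with 217 and 94 counts and a ratio of 1.58 (1.07 to 2.11), beside 0.95 in non-immune nuclei outside the cluster. Gucy1a2, a subunit of the nitric oxide receptor guanylate cyclase, was at 1.51 (1.03 outside), the serotonin receptor gene Htr4 at 1.49 (0.25), Gm8439 at 1.41 (0.42) and Crym, which binds thyroid hormone, at 1.37 (0.68). Lowest were Coq5, of coenzyme Q synthesis, at -1.20 (-1.89 to -0.56), with -0.26 outside, and Parp1, a DNA damage sensor, at -1.11 (0.05 outside). Slc9a4, Lgals12 and Tnfsf8 followed at -1.08, -1.05 and -1.0. These are extremes of a long order and were not tested.

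The choosing markers were set side by side in both libraries. B-led nuclei had to pass the same lead of the B score over the L and H scores in each library. This limits how far these genes can differ in them, so the values are a description. In B-led nuclei of the cluster Krt14 stood at 133.5 CPM in DOX and 112.9 in EtOH (log2 ratio 0.24, 0.01 to 0.48) and Krt17 at 42.6 and 36.1 (0.24, -0.18 to 0.66). In non-immune nuclei outside the cluster the same genes stood at 55.3 and 34.7 CPM (0.67, 0.60 to 0.74) and at 11 and 6.5 CPM (0.76, 0.60 to 0.92). Trp63 stood at 156 and 178 CPM in the cluster (-0.19, -0.39 to 0.02), Oxtr at 64.1 and 81.1 (-0.34, -0.65 to -0.03) and Mylk at 221 and 245 (-0.14, -0.31 to 0.03). The whole B list outside the cluster stood at 379 CPM (375 to 384) in DOX and 341 CPM (337 to 345) in EtOH. Accessibility of Trps1, whose mRNA the shRNA acts on, was 142.9 and 144.4 CPM in cluster B-led nuclei (-0.01, -0.23 to 0.20) and 176 (170 to 183) and 145 (138 to 153) CPM over all B-led nuclei, a measure of its locus and not of the knockdown.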

How the data were processed

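Single-nucleus ATAC-seq was measured in 1 DOX and 1 EtOH library, grouped by the sample labels. The authors deposited counts, whole-number transposition events per peak and barcode, without normalization; per the file headers they were made with Cell Ranger ATAC 2.0.0, which called cells and peaks in each library alone, while the methods name another version. The labels name mm10. Peaks were taken as GRCm38 after 0 ended beyond a chromosome, and genes came from GENCODE.

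Overlapping peaks were merged across the libraries (bedtools 2.31.1), giving 174940 shared regions. Counts were summed over nuclei and scaled to CPM of counts in shared regions. Both ends of a fragment often fall in the same peak, so intervals were computed from counts divided by 2: exact conditional binomial for ratios, exact Poisson for CPM and Clopper-Pearson for shares. Regions needed at least 100 counts and named genes or regions at least 200. Nuclei were clustered by TF-IDF and singular value decomposition (components 2 to 30, 15 neighbours, Leiden at a resolution of 0.5, igraph 0.11.9 and leidenalg 0.10.2) with scikit-learn 1.9.0, numpy 2.4.6, pandas 2.3.3, scipy 1.17.1, matplotlib 3.10.9 and pysam 0.24.0 in Python 3.11.15. No doublet caller was run, and leaving out the deepest 5% of nuclei was an alternative. The calculations were tested on simulated data.

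Motifs of GATA, ETS, SOX, FOX, AP-1 and NFI factors were also searched and are not described. The members, gene lists and motifs were chosen with earlier results of these data known. Of lists with over 10 measured genes, the 4 highest and 2 lowest ratios of B-led over other non-immune nuclei in EtOH were named; between libraries, the 5 highest and 5 lowest genes; and the 8 highest regions. Dcn, Col1a2, Pdgfra, Fap, Twist2, Mcam and Notch3 were named after their values were seen. Other depth, lead, immune, scaling, peak, marker, fold and count settings were alternatives, and the restrictions to clusters were chosen after seeing the data.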

Additional observations from a re-analysis of the deposited data

How the results depend on the processing

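No paired analysis was possible because only 1 library was made of each group. Each cause below was not tested unless the setting itself makes it.

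The B-led share of kept nuclei, 15.8% in DOX and 12.0% in EtOH, became 23.8% and 18.1% with no lead required, 8.71% and 6.63% with a lead of 1.5, 30.2% and 14.4% without the immune limit and 11.5% and 14.4% with the mean of each library alone. In DOX it became 14.2%, 17.6% and 17.4% without Krt14, Myh11 or Mylk, and in EtOH 13.6% without Myh11, 15.6% with peaks within 1 kb of a start site and 16.5% after thinning. The difference of 3.82 percentage points became 15.8 without the immune limit, 0.587 with peaks near start sites and 0.3455 after thinning, and it reversed to -2.91 with the mean of each library alone. B-led nuclei of the basal-like cluster alone were 1.76% and 2.59%, which reversed it to -0.836.

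Regions at least 2-fold apart from other non-immune nuclei were 4.73% in DOX and 16.7% in EtOH, and became 1.26% and 6.80% at 3-fold, 36.1% and 42.1% for the cluster and 1.13% and 2.64% within the largest cluster. In DOX they were 2.24% at 200 counts and 7.42% at a lead of 1.5. The groups of nuclei differed in depth, so these shares are values side by side. Regions apart between the libraries, 12.1%, became 3.62% at 3-fold and 3.89% in the cluster. The share of selective regions with a p63 core, 1.57 times that of all regions, was 3.76 for the strict core, 1.28 over whole regions, 2.06 at 3-fold, 2.0 when chosen in DOX, 1.34 in the cluster and 1.28 within the largest cluster.

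Depth limits each nucleus more than each sum: a choice that rests on about 30 counts moves with thinning. Nuclei of 1 library are not replicates, so no interval covers variation between mice or cultures.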

Other observations

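The basal-like cluster also held 8 nuclei in DOX and 44 in EtOH that were not B-led, of which 2 and 8 were led by the hormone-sensing luminal score and 6 and 36 by none. Regions of the 68 basal genes took a median of 0.616% and 0.565% of their counts, beside 0.558% and 0.577% in the B-led nuclei of the cluster.

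Markers of the hormone-sensing list went in both directions in B-led nuclei of the cluster. The summed list stood at 262 CPM (241 to 285) against 240 (236 to 244) outside the cluster in DOX. In EtOH it stood at 243 (225 to 262) against 272 (268 to 275). Over all nuclei of the cluster, B-led or not, it stood at 271 (251 to 292) in DOX and 284 (269 to 300) in EtOH. Esr1, the estrogen receptor gene, stood at 140 CPM against 85.3 outside the cluster in DOX and at 130 against 108 in EtOH, log2 ratios of 0.71 (0.54 to 0.88) and 0.27 (0.12 to 0.42). Tnfsf11, which encodes RANKL, was at 0.71 (0.33 to 1.07) and 0.91 (0.57 to 1.24). The prolactin receptor gene Prlr (-0.65 and -0.96) and Foxa1, a pioneer factor of hormone-sensing cells (-1.13 and -1.18), had intervals below 0. These genes were among those that chose the nuclei, which limits their ratios, so the values are a description, and Esr1, Tnfsf11, Prlr and Foxa1 were named after their values were seen.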
